A study of Mus musculus with 4 samples.

Results

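The platelet-derived growth factor (PDGF) family was followed in single cells of the mouse nose at embryonic day 14.5. All 6 genes, the ligands Pdgfa, Pdgfb, Pdgfc and Pdgfd and the receptors Pdgfra and Pdgfrb, were found by symbol among the 32285 genes of the deposited tables. The data are 4 droplet libraries of whole dissected noses, 2 labelled as controls and 2 labelled Sox10cre/Yap/Taz, called mutant here. The mutant noses carried Tg(Sox10-cre)1Wdr, a Cre recombinase under the Sox10 promoter that is active in the neural crest and its glia, with 1 floxed allele of Yap and both alleles of Taz floxed according to the series design. The sample labels give the controls as C57Bl/6J wild type, while the design gives them as carrying floxed Yap and floxed Taz without Cre, so whether the controls share the floxed alleles cannot be told apart. Cells were dissociated with papain, frozen and thawed before 3′ capture. Nothing in the labels says whether a library was made from 1 nose, and p-values measure the spread between these libraries only.

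PDGF ligands are secreted dimers that pair and activate receptor tyrosine kinases on neighbouring cells. PDGF-A and PDGF-C signal mainly through PDGFRα, and PDGF-B and PDGF-D mainly through PDGFRβ. PDGF-C and PDGF-D carry a CUB domain that proteases such as tissue plasminogen activator and urokinase remove before the ligand can bind. In the face, epithelial PDGF-A and PDGF-C act on PDGFRα of the neural crest mesenchyme, and loss of that receptor gives facial clefts. In vessels, endothelial PDGF-B recruits mural cells (pericytes and smooth muscle) through PDGFRβ.

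After cells with fewer than 500 genes or over 10% mitochondrial UMIs (unique molecular identifiers, 1 per captured transcript) were left out, 13739 cells remained, 4075 and 2474 in the controls and 2995 and 4195 in the mutants, with median depths of 5282 to 8549 UMIs. Cells were sorted into classes by 3 or more markers of a class, none of them a PDGF gene, which gave 1210 epithelial, 209 endothelial, 202 mural and 9764 mesenchymal cells. Library pairs shared 3 to 5 barcodes. Yap1 and Wwtr1 check the labels only weakly, since 3′ reads need not cover a deleted exon and not every cell of a nose descends from Sox10-expressing cells: over all cells Yap1 had 65.0 and 65.2 CPM (counts of a gene scaled to the total UMIs of the same cells) in control libraries, against 56.4 and 56.0 in the mutants. Wwtr1, which encodes TAZ, had 118 and 145 against 123 and 132. Eif3l and Polr2f, neighbours of Sox10 in the genome, separated the labelled groups, Eif3l at 93.1 and 89.2 against 184 and 190 CPM and Polr2f at 199 and 191 against 373 and 351 CPM.

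The ligands and receptors were laid out across different classes. Epithelium held the largest share of Pdgfa UMIs and much of Pdgfc, endothelium had the highest level of Pdgfb and mural cells that of Pdgfrb, and mesenchyme held most Pdgfra UMIs. Levels below are UMIs of a gene summed over the cells of a class in 1 library, as CPM of that class, listed as control 1, control 2, mutant 1 and mutant 2.

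**Figure D1:**
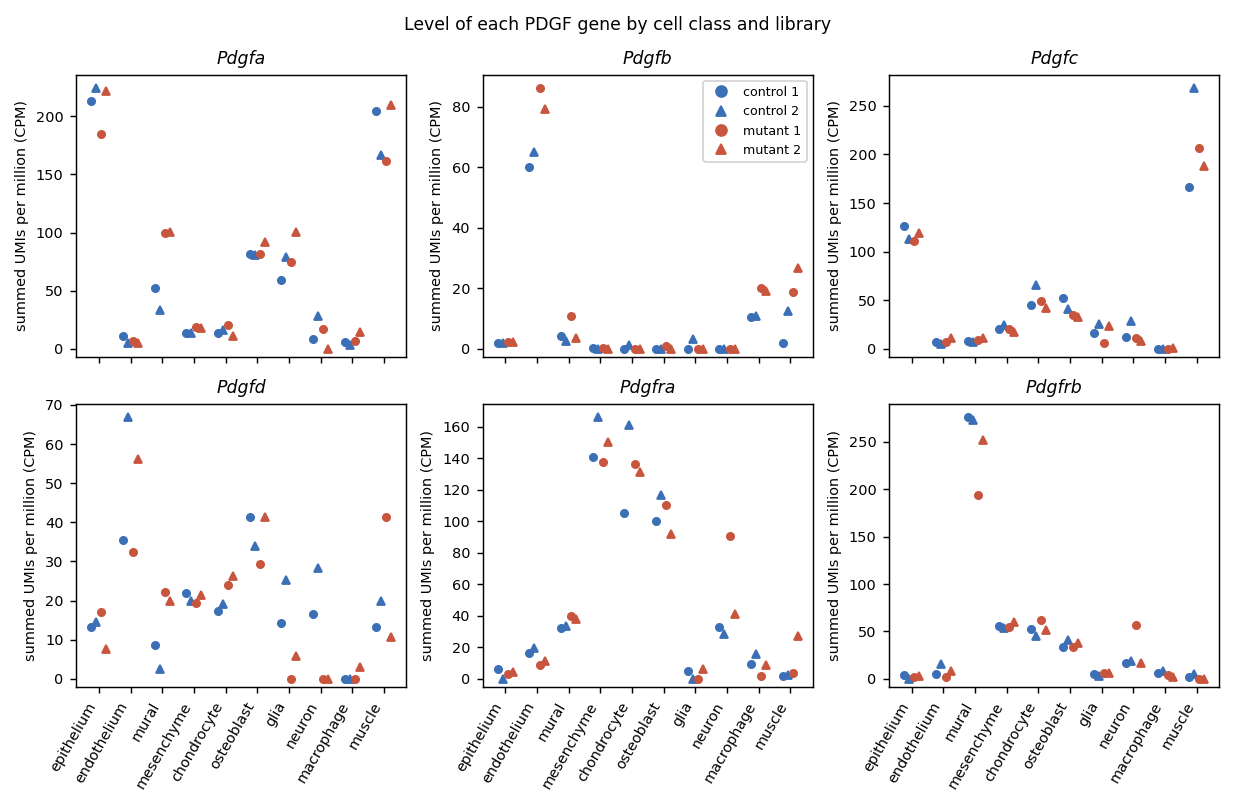
Level of each of the 6 genes in 10 cell classes; the vertical axis is summed UMIs as CPM on a linear scale, and each point is 1 library (blue controls, red mutants). Pdgfa is highest in epithelium and muscle, Pdgfb in endothelium, Pdgfrb in mural cells, and Pdgfra in mesenchyme, chondrocytes and osteoblasts.

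Pdgfa (chr5:138976014-138997370, minus strand, GRCm38) stood at 213, 225, 185 and 222 CPM in epithelium. Muscle cells, 82 in all, were at 205, 167, 162 and 209 CPM, a range that overlaps that of epithelium. Osteoblasts followed at 81.5, 81.1, 81.5 and 92.0 CPM, glia at 59.2 to 101 CPM and mural cells at 33.2 to 101 CPM, and these 3 ranges overlap. Mesenchyme lay lower, at 14.2, 13.4, 19.1 and 18.0 CPM. Epithelium exceeded mesenchyme by 3.71 on the log2 scale (SE 0.16, adjusted p = 1.2e-12, edgeR quasi-likelihood test with the library as block and Benjamini-Hochberg adjustment over all genes).

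Within epithelium the keratinocyte markers Krt5, Krt14, Krt15, Krt17 and Trp63 picked out 715 cells with 245, 233, 227 and 272 CPM of Pdgfa. This was above the level over all epithelial cells, of which they are part, in 4 of 4 libraries, and the difference was not tested.

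Pdgfc (chr3:81036416-81214040, plus strand) was also an epithelial gene, at 126, 113, 111 and 119 CPM. Only muscle was above it, at 167, 269, 207 and 188 CPM, and the 2 ranges do not overlap. Chondrocytes (41.7 to 65.9 CPM) and osteoblasts (32.6 to 52.7 CPM) came next with overlapping ranges, and mesenchyme was at 21.0, 24.2, 20.5 and 17.1 CPM. The epithelium to mesenchyme difference was 2.52 (log2, SE 0.10, adjusted p = 5.2e-13, edgeR).

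Pdgfb (chr15:79995874-80014977, minus strand) had its highest level in endothelium, which held 44.4 to 61.7% of its UMIs. Endothelial cells were at 60.1, 65.1, 86.4 and 79.3 CPM, and the next classes were macrophages, at 10.4, 11.0, 20.05 and 19.1 CPM, and muscle, at 1.90, 12.4, 18.8 and 26.8 CPM from 1 to 5 UMIs per library, with overlapping ranges. Mural cells carried 2.55 to 11.0 CPM and epithelium 1.93 to 2.25 CPM. In mesenchyme 12 UMIs were found in 9764 cells, and control 2 had none, which allows up to 0.222 CPM. Endothelium exceeded mural cells by 3.83 (log2, SE 0.37, adjusted p = 3.7e-07, edgeR).

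Pdgfd (chr9:6168584-6378850, plus strand) was the most evenly spread ligand. Endothelium had the highest mean, with 35.5, 66.8, 32.4 and 56.1 CPM, and osteoblasts at 29.4 to 41.4 CPM overlapped it. Mesenchyme was narrow, at 22.0, 19.9, 19.4 and 21.4 CPM. Endothelium was above mesenchyme by 1.28 (log2, SE 0.25, adjusted p = 0.00041, edgeR). With 2 rather than 3 markers required of a class this difference no longer passed (log2 0.69, adjusted p = 0.18).

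Pdgfra (chr5:75152292-75198215, plus strand), the receptor for PDGF-A and PDGF-C, was at 141, 166, 137 and 150 CPM in mesenchyme. Chondrocytes (105 to 161 CPM) overlapped mesenchyme, and osteoblasts (92.0 to 116 CPM) overlapped chondrocytes. Mural cells were far lower at 32.0, 33.2, 39.7 and 37.8 CPM, 2.02 below mesenchyme on the log2 scale (SE 0.22, adjusted p = 2.3e-06, edgeR). Epithelium had 5.98, 0, 2.82 and 4.504 CPM, where the 0 of control 2 allows up to 2.07 CPM. The summed level of the 9 mesenchyme markers in epithelium was lowest in the same library, at 122 CPM against 376 to 452 CPM in the others. The part of mesenchymal RNA in the epithelial Pdgfra value was not tested.

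Pdgfrb (chr18:61045150-61085061, plus strand), the receptor for PDGF-B and PDGF-D, marked mural cells at 276, 273, 194 and 252 CPM. Mesenchyme carried it at a lower level, 55.7, 54.1, 54.2 and 60.4 CPM, and chondrocytes at 45.4 to 62.2 CPM overlapped mesenchyme. Mural cells exceeded mesenchyme by 2.19 (log2, SE 0.15, adjusted p = 1.4e-08, edgeR) and endothelium by 5.00. The endothelial difference fell to 2.27 when 2 markers sufficed for a class, and still passed (adjusted p = 2.5e-08).

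Most genes differ between classes, and the counts of PDGF genes have to be read against that. Epithelium and mesenchyme differed in 6 of 6 PDGF genes against 60.3% of the 11393 genes tested, and endothelium and mesenchyme in 6 of 6 against 49.7%. Mural cells and mesenchyme differed in 5 of 6, all but Pdgfd, against 23.9%, and endothelium and mural cells in 5 of 6, all but Pdgfc, against 29.3%. Epithelium and endothelium differed in 6 of 6 against 48%. Epithelium and mural cells differed in 4 of 6 against 41.9%, Pdgfb (adjusted p = 0.054) and Pdgfd (adjusted p = 0.91) being the exceptions, and Pdgfb passed when cells with the highest doublet scores were removed (adjusted p = 0.029).

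Some of these differences did not pass under another processing. With 2 rather than 3 markers required of a class, endothelium and mesenchyme did not differ past the threshold in Pdgfc (log2 -0.28 rather than -1.29, adjusted p = 0.39) or Pdgfa (-0.34 rather than -0.99, adjusted p = 0.41). Pdgfa there had an adjusted p of 0.043, and of 0.090 and 0.18 without mutant 1 and mutant 2 and 0.052 with gates on thinned cells. The same looser gate ended the calls between endothelium and mural cells for Pdgfra (log2 -0.07, adjusted p = 0.87) and Pdgfd (0.88, adjusted p = 0.31), and that of Pdgfra was also lost without mutant 1 (0.078) or mutant 2 (0.093) and without the top doublet scores (0.057). With 4 markers, epithelium and endothelium did not differ past the threshold in Pdgfrb (log2 -0.29, adjusted p = 0.71) or Pdgfra (-0.78, adjusted p = 0.22). Gates on thinned cells also ended that Pdgfra call (0.12), and leaving out control 2 (0.14) or mutant 2 (0.11) that of Pdgfrb. Pdgfd was 0.65 lower in epithelium than in mesenchyme (log2, adjusted p = 0.019) but did not pass by DESeq2 (0.10), with 2 markers (0.063), with gates on thinned cells (0.17), without control 1 (0.11) or without mutant 2 (0.14).

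Outside the 4 main classes, comparisons with mesenchyme were added after the levels had been seen. Osteoblasts had more Pdgfa (log2 2.49, SE 0.12, adjusted p = 2.6e-10), Pdgfc (1.12) and Pdgfd (0.94) and less Pdgfra (-0.40) and Pdgfrb (-0.54), 5 of 5 genes tested against 31.3% of all genes. Chondrocytes differed in Pdgfc alone among the 5 tested (log2 1.28, SE 0.13, adjusted p = 5.2e-06), against 18.5%. Glia had more Pdgfa (log2 2.21, SE 0.25, adjusted p = 1.8e-10) and less of both receptors, 3 of 5 against 25.1%. Macrophages differed in 6 of 6 genes, against 58.6% of all genes, with more Pdgfb and less of the other 5. The Pdgfa difference of macrophages (log2 -0.85, adjusted p = 0.046) did not pass by DESeq2 (0.062), with 2 or 4 markers (0.19 and 0.12), in stricter cells (0.094) or without control 1, control 2 or mutant 1 (0.13 each). The Pdgfc difference of osteoblasts did not pass with 2 markers per class (log2 0.37, adjusted p = 0.15), nor that of Pdgfrb (-0.24, adjusted p = 0.055), and that of Pdgfra did not pass with 4 (-0.21, adjusted p = 0.19).

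Counted as shares of all UMIs of a gene, which weigh a class by cell number and by depth, the picture of the sources shifts. Median depths were 7506 to 12128 UMIs in epithelium and 6860 to 16698 in endothelium, against 4946 to 8144 in mesenchyme. Epithelium, 4.89 to 11.1% of cells, held 55.2, 40.9, 55.1 and 51.8% of all Pdgfa UMIs. It held 44.3, 20.1, 45.0 and 42.5% of Pdgfc UMIs, and mesenchyme 25.2, 40.4, 33.2 and 27.8%, so in control 2, the library with the fewest epithelial cells, mesenchyme was the larger source. Endothelium, at most 1.84% of cells, held 51.2, 61.7, 44.4 and 54.6% of Pdgfb. Macrophages held 6.98 to 11.7% of Pdgfb, epithelium 5.00 to 9.26% and muscle 0.775 to 8.33%. Cells that met several gates and were set aside, which include possible doublets, held 24.8, 3.33, 19.4 and 16.8% of Pdgfb UMIs. Mesenchyme held 56.5 to 67.5% of Pdgfd, 83.7 to 89.2% of Pdgfra and 71.6 to 81.8% of Pdgfrb, while mural cells, with the highest level per cell class, held 7.23 to 12.5% of Pdgfrb.

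**Figure D2:**
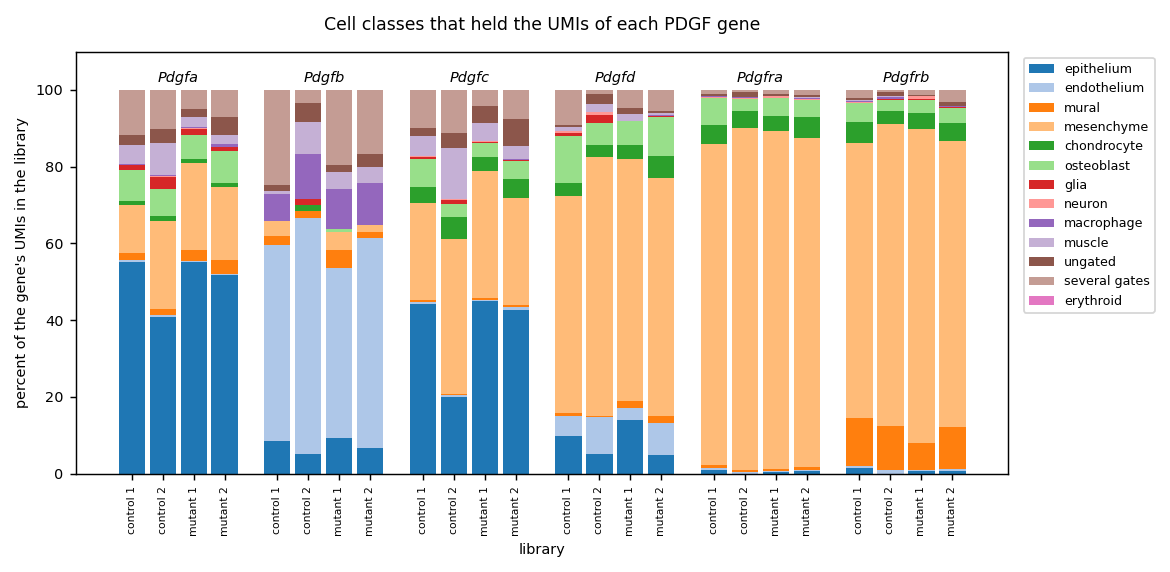
Share of the UMIs of each PDGF gene that fell in each cell class; each bar is 1 library and sums to 100% of that gene's UMIs over retained cells. Epithelium holds 40.9 to 55.2% of Pdgfa, endothelium 44.4 to 61.7% of Pdgfb, and mesenchyme 83.7 to 89.2% of Pdgfra.

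Single mesenchymal cells were then scored for each receptor after cells were thinned to 2000 UMIs each. Cells with fewer UMIs were left out, which left 2723, 1842, 2083 and 2860 of 2787, 1886, 2146 and 2945 mesenchymal cells. Pdgfra was detected in 23.4, 26.7, 23.7 and 24.0% of mesenchymal cells and Pdgfrb in 10.0, 10.4, 10.1 and 11.2%. Without thinning the shares were 54.8, 60.1, 57.8 and 48.1% and 29.3, 28.9, 33.2 and 25.4%. In macrophages, which serve as a background for free RNA, the thinned share was 0 or 1 cell per library for Pdgfra and 0 to 2 cells for Pdgfrb, at most 3.57%.

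The receptors were not kept apart in mesenchyme. Among mesenchymal cells with a Pdgfra UMI, 10.3, 11.4, 10.3 and 12.4% also had a Pdgfrb UMI, and among those without, 9.93, 10.1, 10.0 and 10.9%. The share was higher beside Pdgfra in 4 of 4 libraries, by 0.32 to 1.51 percentage points. These small gaps rest on 51 to 85 cells with both receptors per library and were not tested against counting error. In mural cells the thinned Pdgfra share was 4.48, 5.41, 2.63 and 10.2%, 1 to 6 cells per library, and its intervals overlap the macrophage background. Summed without thinning, mural Pdgfra was at 32.0 to 39.7 CPM and macrophage Pdgfra at 1.82 to 15.7 CPM, ranges that do not overlap.

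**Figure D3:**
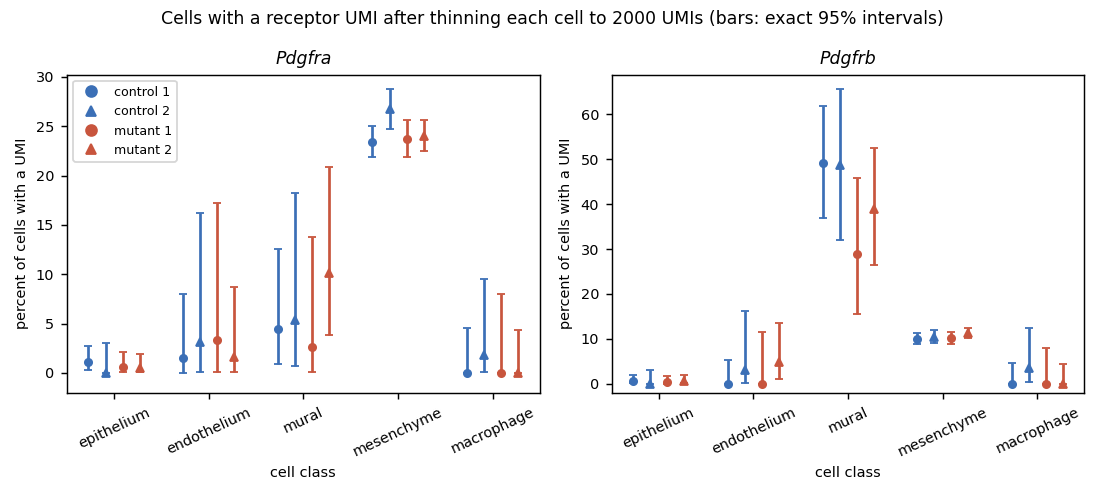
Percent of cells with at least 1 UMI of each receptor after thinning to 2000 UMIs; points are libraries and bars are exact 95% binomial intervals, which cover counting error only. Pdgfra is found in 23.4 to 26.7% of mesenchymal cells and Pdgfrb in 28.9 to 49.3% of mural cells.

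Mesenchyme was not uniform in its PDGF genes. Cells with at least 1 UMI of a regional transcription factor were compared with the remaining mesenchyme of the same library for 8 factors, in tests added after the levels had been seen. The subsets overlap, and cells with a UMI of a factor were in most libraries somewhat deeper. The part of depth in these differences was not tested. Of the 40 tests of 5 PDGF genes (Pdgfb was too low to test), 16 passed, while 5.7 to 23.2% of all genes passed per factor.

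The clearest contrast was in cells with Pou3f4, a POU-domain factor of periotic and craniofacial mesenchyme. They had 3.15, 1.91, 2.21 and 4.72 CPM of Pdgfd, from 1 to 5 UMIs per library, against 23.3, 20.7, 21.8 and 22.5 CPM in the other mesenchyme. The log2 difference was -2.88 (SE 0.26, adjusted p = 1.1e-07, edgeR). In the same cells Pdgfrb was at 29.1, 26.7, 32.7 and 35.0 CPM against 57.6, 55.2, 57.2 and 62.1 CPM (log2 -0.85, SE 0.11, adjusted p = 1.1e-05). Pdgfra was also lower (log2 -0.41, adjusted p = 0.00048) and Pdgfc higher (0.69, adjusted p = 0.0057), the last not passing without mutant 2 (adjusted p = 0.058). So 4 of the 5 PDGF genes differed here, where 23.2% of all genes did.

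Pdgfd showed the reverse in cells with Foxl2, a forkhead factor of periocular and craniofacial mesenchyme. They had 39.6, 39.2, 72.8 and 67.1 CPM against 19.9, 17.7, 16.5 and 17.7 CPM (log2 1.54, SE 0.17, adjusted p = 7.7e-05), the only one of the 5 genes to pass, against 5.7% of all genes. The fit pooled control and mutant libraries, while in Foxl2 cells both mutant values lay above both control values. Whether Pdgfd in Foxl2 cells differed between mutant and control libraries was not tested. Foxl2 cells were 11.0 and 10.3% of control mesenchyme and 4.38 and 7.23% of mutant mesenchyme.

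Cells with Pax9, a paired-box factor of palate and tooth mesenchyme, had more of both members of the Pdgfd and Pdgfrb pair. Pdgfd was at 32.6, 49.6, 43.9 and 38.2 CPM against 20.3, 17.2, 14.9 and 19.3 CPM (log2 1.11, SE 0.15, adjusted p = 0.00027). Pdgfrb was at 71.1, 86.0, 82.6 and 82.2 CPM against 53.4, 51.2, 48.9 and 57.7 CPM (log2 0.53, SE 0.09, adjusted p = 0.0013). These 2 of 5 genes compare with 13.3% of all genes.

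Pdgfc was lower in cells with Osr1, a zinc-finger factor of mesenchymal progenitors. It stood at 14.4, 18.0, 14.3 and 10.2 CPM against 24.0, 28.0, 25.1 and 20.3 CPM (log2 -0.79, SE 0.09, adjusted p = 5.5e-05). Pdgfra in these cells was higher in 4 of 4 libraries by a small amount (log2 0.17, adjusted p = 0.0096), a difference lost by DESeq2 (adjusted p = 0.16) and without control 1 (0.062). The 2 calls of 5 compare with 11.5% of all genes.

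The other 4 factors gave smaller differences. With Shox2, a homeobox factor of the palate, Pdgfc (log2 -0.46) and Pdgfd (-0.55) were lower, 2 of 5 against 6.18% of genes, and neither passed by DESeq2 (adjusted p = 0.18 and 0.056). With Foxc1, Pdgfd (0.77) and Pdgfc (0.52) were higher, 2 of 5 against 17%, the Pdgfc call not holding with 2 markers per class (adjusted p = 0.053). With Alx4, Pdgfd was higher (0.54, adjusted p = 0.026), 1 of 5 against 7.32%, and did not pass by DESeq2 (0.077), with gates on thinned cells (0.16) or without control 2, mutant 1 or mutant 2 (adjusted p = 0.092 to 0.11). With Foxd1, Pdgfrb was lower (-0.31, adjusted p = 0.010) and Pdgfa higher (0.34, adjusted p = 0.047), 2 of 5 against 12.2%. The Pdgfa call was lost without each of the 4 libraries in turn (adjusted p = 0.071 to 0.20), by DESeq2 (0.40), without a filter (0.068), with 2 or 4 markers (0.18 and 0.54) and with gates on thinned cells (0.59). The Pdgfrb call was lost by DESeq2 (0.085), with gates on thinned cells (0.056) and without mutant 1 (0.054).

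**Figure D4:**
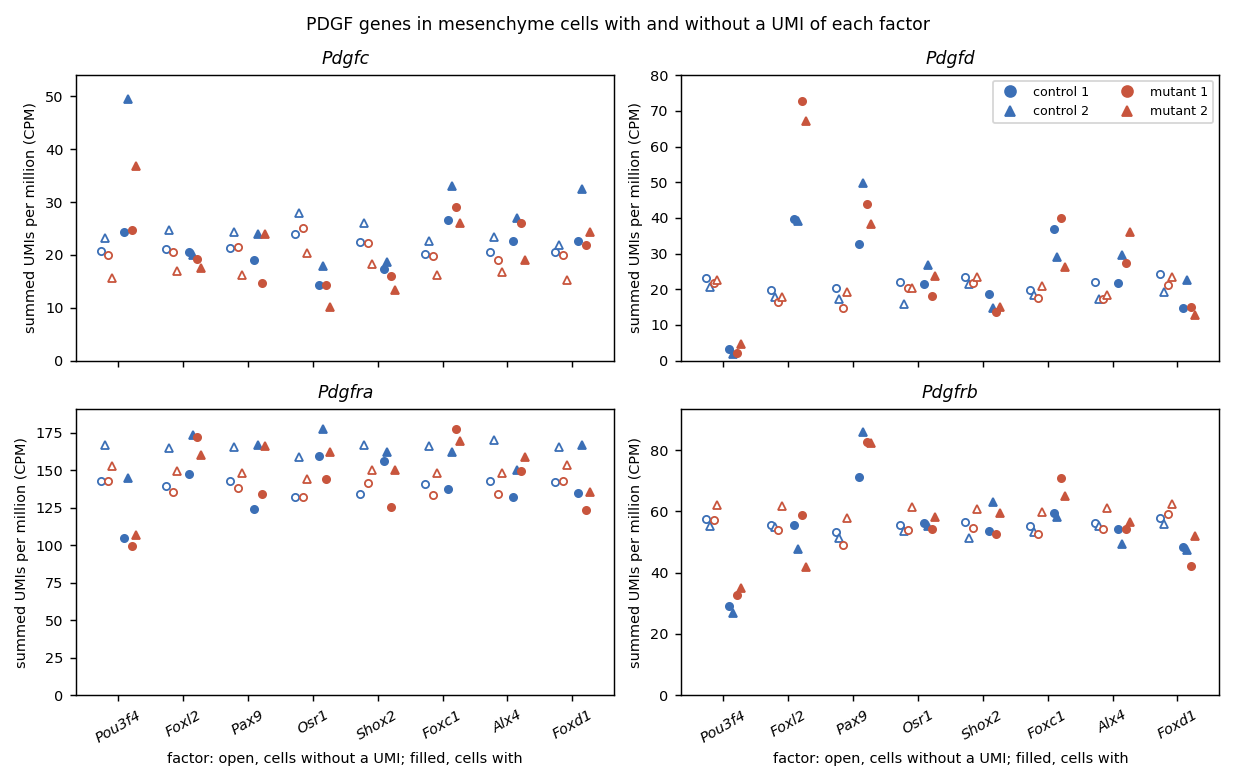
Level of Pdgfc, Pdgfd, Pdgfra and Pdgfrb in mesenchymal cells with a UMI of each factor (filled) and without (open); the vertical axis is summed UMIs as CPM and each point is 1 library. Pdgfd ranges from 1.91 to 4.72 CPM in Pou3f4 cells and from 39.2 to 72.8 CPM in Foxl2 cells.

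Over the 16 sums of 4 classes and 4 libraries, the genes whose log2(CPM + 10) ran closest to each member were listed as a description, markers used for sorting left out. For Pdgfa these were Acaa2 (Pearson r 0.97), Aktip (0.95) and Ctsc (0.95). For Pdgfb they were Arhgap18 (0.99), Cd93 (0.99), a surface receptor of endothelium, and Hhex (0.98), an endothelial homeobox factor. Pdgfc ran with Mapk13 (0.99), Tuft1 (0.98) and Plppr1 (0.98), and Pdgfd less tightly with Smad1 (0.91), Palm (0.90) and Cdh13 (0.90). Pdgfra ran with Clmp (0.99), Sgcd (0.97) and Lrrc7 (0.97), and Pdgfrb with Cd248 (0.98), the stromal protein endosialin, Lhfp (0.98) and Pde3a (0.98). The sums share libraries and depth within a library, and the values mostly follow the differences between 4 classes.

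Genes that act beside the ligands and receptors also differed between classes. Of 10 genes for ligand processing and binding, 5 were higher and 3 lower in endothelium than in mesenchyme, where 49.7% of all genes differed (median log2 difference 0.63, against -0.04 over all genes). Plau, which encodes urokinase, led with 4.95 (SE 0.33), and Plaur, its receptor, with 2.99 (SE 0.42). Lower there were Lrp1, a co-receptor of PDGFRβ, at -2.72, and Thbs1, thrombospondin, at -2.502. In mural cells Plat, tissue plasminogen activator, was 2.15 above mesenchyme (SE 0.27), and 3 of the 10 were higher and 2 lower, against 23.9% of all genes (median -0.18). In epithelium 2 were higher and 5 lower, against 60.3% of all genes (median -1.51), led by Nrp1 at -3.81 and the proprotein convertase Pcsk5 at -2.74.

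Of 30 genes of receptor signalling, 10 were higher and 0 lower in mural cells than in mesenchyme, where 23.9% of all genes differed (median 0.21, against -0.03 over all genes). Gab1, a docking adaptor, was 1.54 higher (SE 0.14), and Src 1.16 (SE 0.28). In endothelium 13 were higher and 3 lower, a share near the 49.7% of all genes, with Pik3cb at 1.67 and Fyn at 1.60 above mesenchyme. In epithelium 7 were higher and 12 lower, a share near the 60.3% of all genes.

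Of 14 early response genes, which growth factor signalling and cell dissociation both induce, 14 were higher in epithelium than in mesenchyme, where 60.3% of all genes differed (median 1.04, against 0.00 over all genes). Fosl1 led with 4.53 (SE 0.33), then Egr2 with 2.90, Junb with 2.19 and Egr1 with 1.71. In mural cells 9 were higher and 1 lower, against 23.9% of all genes. In endothelium 4 were higher and 4 lower, a share near the 49.7% of all genes. The part of dissociation in these levels was not tested.

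The central comparison asked whether the PDGF genes differed between the mutant noses, with Sox10-Cre, 1 floxed Yap allele and both Taz alleles floxed, and the controls. No PDGF gene passed the adjusted threshold of 0.05 in all retained cells, epithelium, endothelium, mural cells or mesenchyme. Over all genes, 0% passed in all cells, 0% in epithelium, 0.101% in endothelium, 0.923% in mural cells and 0% in mesenchyme by edgeR's quasi-likelihood test. At an unadjusted p under 0.05 the shares of all genes were 4.88%, 4.69%, 6.65%, 9.7% and 8.18%. DESeq2 called 30, 5, 5, 15 and 69 genes in these comparisons, none of them a PDGF gene. Without control 1 edgeR called 410, 1162, 164, 320 and 657 genes, and Pdgfa in mural cells was the only PDGF gene among them.

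**Figure D5:**
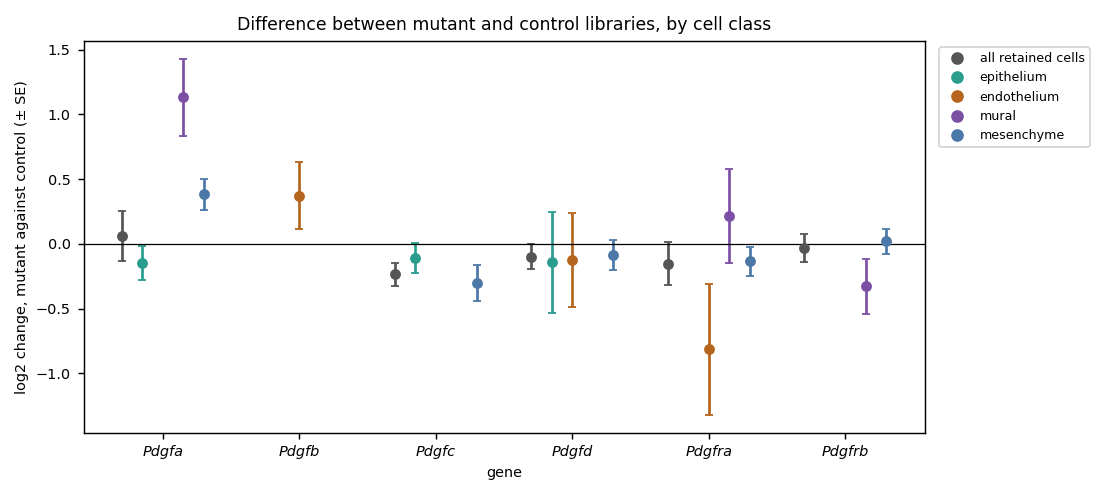
Log2 change of each PDGF gene in the mutant against the control libraries with its standard error, for all retained cells and the 4 main classes, where the gene averaged at least 10 CPM and was tested. Pdgfa in mural cells lies farthest from 0, at 1.13, and the other values lie between -0.81 and 0.38.

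Pdgfa in mural cells came closest to the threshold. Control levels were 52.3 and 33.2 CPM and mutant levels 99.3 and 101 CPM. The groups did not overlap, as for 38.8% of the genes tested in mural cells. The log2 change was 1.13 (SE 0.30, adjusted p = 0.090, edgeR). It rested on 36, 13, 45 and 56 UMIs in 20, 11, 16 and 29 cells, and the 3 cells with most UMIs held 15, 5, 18 and 13 of them. It passed without control 1 (log2 1.55, adjusted p = 0.014) with no filter on low counts (adjusted p = 0.041) and with the replicate number as a block (adjusted p = 0.035), and not by DESeq2, which gave an adjusted p near 1.

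Osteoblast, neuron and chondrocyte markers moved with that value, and glial, epithelial and muscle markers did not. The 8 osteoblast markers summed to 53.7 and 15.3 CPM in control mural cells and 94.9 and 89.9 CPM in mutant mural cells, with Bglap and Bglap2 at 0 in all 4 libraries. Neuron markers summed to 17.4 and 7.65 CPM against 59.6 and 37.8 CPM. Chondrocyte markers summed to 14.5 and 20.4 CPM against 37.5 and 41.4 CPM. Glial markers went the other way, from 90.0 and 196 CPM in control to 17.7 and 63.0 CPM in mutant mural cells. Epithelial markers overlapped between the groups, at 7.26 and 40.8 CPM against 11.0 and 8.99 CPM. Muscle markers overlapped as well, at 24.7 and 7.65 CPM against 15.4 and 21.6 CPM. With every mural cell that held any osteoblast, neuron or epithelial marker left out, an alternative added after seeing the data, 11 to 35 cells per library remained. Pdgfa was then at 57.0, 36.4, 90.7 and 147 CPM, a log2 change of 1.40 (SE 0.40, adjusted p = 0.14). These levels rested on 20, 10, 10 and 36 UMIs. Mutant 1 kept 11 cells, under the minimum of 20 per library set for the other comparisons. Chondrocyte markers were not used to leave out cells.

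Pericyte-marked mural cells (Kcnj8, Abcc9, Higd1b, Vtn, Ndufa4l2), 11 to 23 per library and part of the same mural class, had Pdgfa at 21.7, 32.8, 43.8 and 87.5 CPM, which was not tested. Pdgfd in mural cells was at 8.71, 2.55, 22.1 and 19.8 CPM from 1 to 11 UMIs per library, too few for the test within mural cells.

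Pdgfrb in mural cells was lower in both mutants, 194 and 252 CPM against 276 and 273 CPM, but the difference did not pass (log2 -0.33, SE 0.21, adjusted p = 0.70). The share of mural cells with a Pdgfrb UMI after thinning was 49.3% (95% interval 36.8 to 61.8) and 48.6% (31.9 to 65.6) in the controls, and 28.9% (15.4 to 45.9) and 39.0% (26.5 to 52.6) in the mutants. The groups do not overlap, and the exact two-sided permutation test gave p = 0.33, the smallest that 2 against 2 libraries allow. A test at its floor cannot decide whether the shares differ. On CPM the groups did not overlap for 38.8% of the genes tested in mural cells. How often the thinned shares of other genes separate was not tested. The 10 mural markers summed to 2707 and 2628 CPM in control and 2228 and 1946 CPM in mutant libraries, so the defining genes moved the same way. Their part in the Pdgfrb value was not tested.

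In mesenchyme Pdgfa had 14.2 and 13.4 CPM in control and 19.1 and 18.0 CPM in mutant libraries (log2 0.38, SE 0.12, adjusted p = 0.51), and the groups did not overlap, as for 41.4% of genes. Osteoblast markers in mesenchyme were at 113 to 163 CPM in the controls and at 162 CPM in both mutants. Pdgfc went the other way, at 21.0 and 24.2 CPM against 20.5 and 17.1 CPM (log2 -0.30, SE 0.14, adjusted p = 0.63). Pdgfra (log2 -0.13, SE 0.11), Pdgfd (-0.09, SE 0.11) and Pdgfrb (0.02, SE 0.09) differed by little more than their errors or less.

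In epithelium, the main source of Pdgfa, its change was -0.15 (log2, SE 0.13, adjusted p = 0.95), and that of Pdgfc -0.11 (SE 0.12). Control and mutant levels overlapped for both, while the groups did not overlap for 38.4% of the genes tested in epithelium. In endothelium Pdgfb was higher in both mutants, with a log2 change of 0.37 (SE 0.26, adjusted p = 0.89). This direction was not confined to endothelium. Pdgfb was also higher without overlap in macrophages (means 10.7 and 19.6 CPM) and muscle (7.17 and 22.8 CPM), which was not tested. The same held in all cells and in epithelium, where it averaged under 10 CPM. In mural cells, mesenchyme and the remaining classes its groups overlapped. Endothelial Pdgfra was lower in both mutants, at 8.9985 and 11.0 CPM against 16.4 and 19.3 CPM, from 5 to 18 UMIs per library (log2 -0.81, SE 0.50, adjusted p = 0.86). The groups did not overlap for either gene, as for 35.8% of the genes tested in endothelium. Mesenchyme markers in endothelium summed to 701 and 623 CPM in control and 207 and 736 CPM in mutant libraries. They were lowest in mutant 1, as was endothelial Pdgfra. The part of mesenchymal RNA in the endothelial Pdgfra value was not tested.

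Over all retained cells Pdgfc had 45.9 and 41.0 CPM in control and 39.0 and 36.9 CPM in mutant libraries (log2 -0.24, SE 0.09, adjusted p = 0.91), and 37.9% of all genes were as separate. Pdgfa over all cells was at 62.0, 40.2, 53.1 and 56.6 CPM, with the lowest value in control 2, the library with the smallest epithelial share. Its log2 change was 0.06 (SE 0.19) and turned to -0.20 without that library.

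Whether the mutant effect differed between a class and mesenchyme was tested directly. No PDGF gene passed for epithelium, endothelium or mural cells, where 0%, 0.0614% and 0.0439% of 11393 genes did. For Pdgfa the mural effect exceeded the mesenchymal one by 0.72 (log2, SE 0.30, adjusted p = 0.64), and the epithelial effect was 0.52 below it (SE 0.19, adjusted p = 1). For Pdgfrb the mural effect was 0.37 below the mesenchymal one (SE 0.28, adjusted p = 0.87). For Pdgfd the mural effect was 0.98 to 1.75 above it over the main fit and its alternatives (adjusted p = 0.57 to 0.93, edgeR or DESeq2). Without single libraries that Pdgfd difference ranged from 1.34 to 3.01, and it rests on few mural UMIs.

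The shares of mesenchymal cells with a receptor UMI differed by -1.20 percentage points for Pdgfra and 0.43 for Pdgfrb, mutant minus control, with exact two-sided permutation p = 1 and 0.67 over 2 against 2 libraries. The share with both receptors was 2.42, 3.04, 2.45 and 2.97%, a difference of -0.02 points (exact p = 1).

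None of the genes in the 3 PDGF lists passed between mutant and control libraries in any of the 5 cell groups. Of the 14 early response genes, 12 had a negative change in mesenchyme (median -0.34, against 0.00 over all genes), 12 in epithelium (median -0.19) and 4 of 11 tested in mural cells (median 0.10). Of the 30 receptor signalling genes, 21 had a positive change in mesenchyme (median 0.05) and 14 in epithelium (median -0.04). Of the 10 ligand processing genes, 9 had a negative change in mesenchyme (median -0.14) and 1 of 8 tested in epithelium (median 0.14). Over all genes, 50.2% had a positive change in mesenchyme, 50.3% in epithelium and 51.0% in mural cells. Whether the lists depart from these shares was not tested.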

How the data were processed

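The authors deposited UMI counts per gene and cell from Chromium 3′ v3.1 libraries. The submitters' processing notes name Cell Ranger 4, Seurat 4.3.0 and the build mm10, while the matrices, per the file headers, came from a later Cell Ranger. More than 1 sequencing provider is named without a link to libraries, so batch cannot be tested. Libraries held 20170229 to 35887490 UMIs in 2827 to 4846 barcodes. UMIs were added up over the cells of a class in each library. These sums, scaled by TMM and filtered with filterByExpr, went into the quasi-likelihood test of edgeR 4.0.16, with Benjamini-Hochberg adjustment across the whole table and a threshold of 0.05. Comparisons between classes had the library as block. Shares used thinned cells, exact binomial intervals and exact permutation tests. Doublet callers were not used in the main analysis, since the automatic Scrublet threshold marked 0 to 3 cells per library. The tests recovered known changes in simulated counts. Those changes were larger than most mutant effects of the PDGF genes, and the simulated spread was the same for all genes. So the simulation does not show that effects of that size would be found.

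Named genes were the 6 members, the 3 genes nearest each, and at most 4 per list and comparison by size of change. The members, lists and tests were chosen with earlier results of these data known. Mutant effects are given for members averaging at least 10 CPM. Gene positions are from GENCODE for GRCm38.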

Additional observations from a re-analysis of the deposited data

How the results depend on the processing

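The counts of genes past the threshold moved most between mutant and control libraries. DESeq2 gave 30 genes in all cells, 5 in epithelium, 5 in endothelium, 15 in mural cells and 69 in mesenchyme, and 17 for the difference between mural cells and mesenchyme. With no filter on low counts they were 10, 296, 112, 223 and 633, and 84, 106 and 121 for the differences of epithelium, endothelium and mural cells from mesenchyme. Leaving out single libraries gave 0 to 410 genes in all cells, 0 to 1162 in epithelium, 20 to 164 in endothelium, 61 to 320 in mural cells and 1 to 657 in mesenchyme, and 0 to 103, 1 to 59 and 0 to 28 for the 3 differences. The highest counts in all 5 cell groups came without control 1. The cause was not tested.

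The replicate numbers are shared by both groups but same-numbered libraries did not deviate together (correlations -0.04 to 0.07). The fit with the replicate number as a block called 75 genes in endothelium, 191 in mural cells and 196 in mesenchyme, and mural Pdgfa passed in it (adjusted p = 0.035). No block was added to the tests of differences between classes, where the library already is one.

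With 2 markers per class the counts were 4 in endothelium and 3 in mural cells between mutant and control, 3401 for endothelium against mesenchyme, 1505 for mural cells against mesenchyme, 1694 for endothelium against mural cells and 0 for the mural difference of effects. With 4 markers they were 148 in mural cells, and 4 and 25 for the endothelial and mural differences. Stricter cells (at least 1000 genes, at most 5% mitochondrial UMIs) gave 30 in mural cells and 2 for the mural difference. Gates on cells thinned to 2000 UMIs gave 16 in endothelium.

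For the factors, DESeq2 called 453 genes for Shox2, 626 for Osr1, 395 for Alx4 and 975 for Foxd1, and the fit without a filter 1415 for Shox2, 1596 for Alx4 and 1322 for Foxl2. Without single libraries the counts were 486 to 989 for Shox2, 986 to 1461 for Osr1, 1215 to 1693 for Pax9, 479 to 845 for Alx4, 865 to 1857 for Foxd1 and 407 to 923 for Foxl2. They were 1695 to 2160 for chondrocytes and 1601 to 2416 for mural cells against mesenchyme.

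Signs turned only for values that did not pass the threshold. Without single libraries the mutant change ranged from -0.38 to 0.11 for Pdgfra, -0.20 to 0.40 for Pdgfa and -0.14 to 0.068 for Pdgfrb in all cells, -0.89 to 0.29 for epithelial Pdgfd, -0.65 to 0.32 for endothelial Pdgfd and -0.055 to 0.081 for mesenchymal Pdgfrb. The Pdgfd difference between epithelium and mural cells ranged from -0.36 to 0.38, and its differences of effects from -0.87 to 0.44 (epithelium) and -0.51 to 0.49 (endothelium). Stricter cells gave 0.073 for endothelial Pdgfd, -0.0059 for mural Pdgfra, 0.019 for Pdgfc between endothelium and mural cells and 0.39 for Pdgfd between epithelium and mural cells, which was 0.045 with no filter. With 4 markers mesenchymal Pdgfrb was at -0.0076 and Pdgfc between endothelium and mural cells at 0.11, and with 2 markers at 0.64. Differences of effects turned for Pdgfc (-0.16) and Pdgfd (0.067) in epithelium with gates on thinned cells. In endothelium they turned for Pdgfra (0.62 with 4 markers, 1.85 with thinned gates) and for Pdgfd (-0.054 by DESeq2, -0.49 with 2 markers, -0.070 without the top doublet scores).

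Differences in receptor shares ranged, without single libraries, from -2.84 to 0.44 points for Pdgfra, -0.14 to 1.00 for Pdgfrb and -0.33 to 0.29 for both receptors in mesenchyme. In mural cells they ranged from -2.31 to 5.23 for Pdgfra and -0.75 to 2.64 for both. Thinning to 4000 UMIs gave -0.079 for mesenchymal Pdgfrb and -1.87 for mural Pdgfra.

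Mural and osteoblast comparisons were not run with thinned gates, nor glia with thinned gates or 2 markers, since a library held fewer than 20 cells. With 31 to 77 endothelial and 37 to 67 mural cells per library, genes of a few UMIs were removed by the filter and not tested.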

Other observations

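YAP and TAZ bind DNA through TEAD factors, whose core motif is GGAATG. RefSeq windows of 300 bases (250 before to 50 after a gene's start, GRCm38.p6) matched 4 of the 6 genes, Pdgfa, Pdgfc, Pdgfd and Pdgfra, in 5 windows. The letters GGAATG or their reverse complement CATTCC were in 1 of these 5, that of Pdgfc, and in 14.7% of all 32851 windows. The 2 stretches below are printed because they are the only matches, with the motif in capitals, 5′ to 3′ on the plus strand.
Pdgfc, chr3:81036267-81036296: gggatccccttaGGAATGaaagacaagtta
Pdgfc, chr3:81036436-81036465: ctgggggccgcctggcggCATTCCtcgccg
A match is a description of the letters and not a binding site.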
